A study of Mus musculus with 12 samples.

Results

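The UDP-glucuronosyltransferases (UGTs) and the cytosolic sulfotransferases (SULTs) are the enzymes that couple drugs, hormones and bile pigments to glucuronic acid or sulfate. Their genes were taken by symbol: every row of the count table whose symbol begins with Ugt1a, Ugt2a, Ugt2b, Ugt3a or Sult, without pseudogene segments. This gave 42 genes of the 55401 in the table, 21 UGT and 21 SULT genes. Averaged over all libraries, 25 of them reached 1 CPM (counts per 1000000 counts of a library, with library sizes scaled by the TMM method), which were 18 UGT and 7 SULT genes.

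Whole-liver total RNA was sequenced from male mice aged 7 to 10 weeks, in 4 groups of 3 libraries. Control mice were FBXL5F/F, with loxP sites around the Fbxl5 gene, which encodes the iron-sensing part of a ubiquitin ligase. FBXL5ΔDC mice carried the same floxed alleles together with Cd11c-Cre, whose promoter is active mainly in dendritic cells, so both genotypes share the floxed alleles and hepatocytes are not the targeted cells. Each genotype was sampled untreated (0 h) and 6 h after intraperitoneal acetaminophen. The injected mice had fasted for 16 h and were fed straight afterwards. The dose is given as 300 or 500 mg/kg without saying which applies to these livers, and fasting of the 0 h mice is not stated, so the drug, the injection and the fast cannot be told apart in any 6 h to 0 h comparison. Replicates carry only a number in the labels, and the p-values measure the spread between these samples, which may in part be technical.

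Acetaminophen at a therapeutic dose is cleared mostly as its glucuronide and its sulfate, and a smaller part is oxidised to a reactive quinone imine that glutathione traps. Glucuronidation takes place inside the endoplasmic reticulum with UDP-glucuronic acid as donor, and sulfation takes place in the cytosol with the sulfate donor PAPS. When the conjugating routes are saturated, more of the drug enters the oxidative route. The Ugt3a enzymes differ from the rest in using other UDP-sugars as donors.

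Libraries held 67173096 to 72512319 counts. The deleted gene itself could not check the labels in whole liver: Fbxl5 stood at 17.6 to 22.0 CPM in control and 10.3 to 21.4 CPM in FBXL5ΔDC livers at 0 h, with overlapping groups. The third treated control library stood apart from the other 2 of its group. On the first principal component of log2 CPM it scored 86.8, the other 2 scored -9.46 and -8.18, and the treated FBXL5ΔDC livers scored 97.7 to 107. Comparisons of members that use it are therefore given with and without it where it matters. Hepatocyte markers were abundant in all libraries (8 genes, summed 73000 to 152000 CPM). Of 6 pancreatic markers, Prss2, Cpa1, Cela3b, Pnlip and Cel were at 0 throughout, and Ctrb1 reached at most 0.387 CPM. Kidney markers summed to at most 0.18 CPM. Of 6 intestinal markers, Cdx2 and Sis were at 0, whereas Fabp2 averaged 53.6 CPM and Apoa4 1413 CPM. The source of these 2 transcripts was not tested.

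The 9 Ugt1a genes lie at 1 locus on chromosome 1, between chr1:88055388 and chr1:88220002 on the forward strand (GRCm38). Each has a first exon of its own, and all are spliced onto the same 4 exons, from chr1:88215044 to chr1:88218997, whose 1311 bases are identical in the 9 transcripts. The first exon sets which substrates an enzyme accepts, and the shared exons carry the part that binds UDP-glucuronic acid. The coding sequence across the join is shown for 6 of them because it bears on how their counts can be told apart, with the last 30 bases of the first exon in lower case and the first 30 shared bases in capitals.
Ugt1a1: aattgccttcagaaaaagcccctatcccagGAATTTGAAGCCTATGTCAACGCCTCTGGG
Ugt1a9: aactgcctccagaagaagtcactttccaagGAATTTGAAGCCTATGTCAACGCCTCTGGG
Ugt1a6a: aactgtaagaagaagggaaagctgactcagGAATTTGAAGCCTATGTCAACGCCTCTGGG
Ugt1a6b: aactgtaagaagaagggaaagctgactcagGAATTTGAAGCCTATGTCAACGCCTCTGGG
Ugt1a5: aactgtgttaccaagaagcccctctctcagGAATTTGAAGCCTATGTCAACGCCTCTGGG
Ugt1a2: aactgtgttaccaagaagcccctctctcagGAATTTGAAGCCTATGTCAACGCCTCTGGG
The 30 bases before the join are the same in Ugt1a6a and Ugt1a6b, and the same in Ugt1a5 and Ugt1a2. Between 50.3% and 60.6% of a Ugt1a gene's exon bases are also exon of another Ugt1a gene, so a fragment from the shared exons cannot be placed by sequence alone. The first exons also resemble each other in part: 48.3% of the 50-base words of the Ugt1a6b first exon occur in that of Ugt1a6a, against 7.9% between Ugt1a5 and Ugt1a2. Over whole transcripts, 95.8% of the 50-base words of Ugt1a6a also occur in transcripts annotated to Ugt1a7c. How the deposited counts divided shared fragments is not given in the sources used here. Counts of a single Ugt1a gene are therefore uncertain, and the 9 rows were also added into 1 and tested again.

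**Figure D1:**
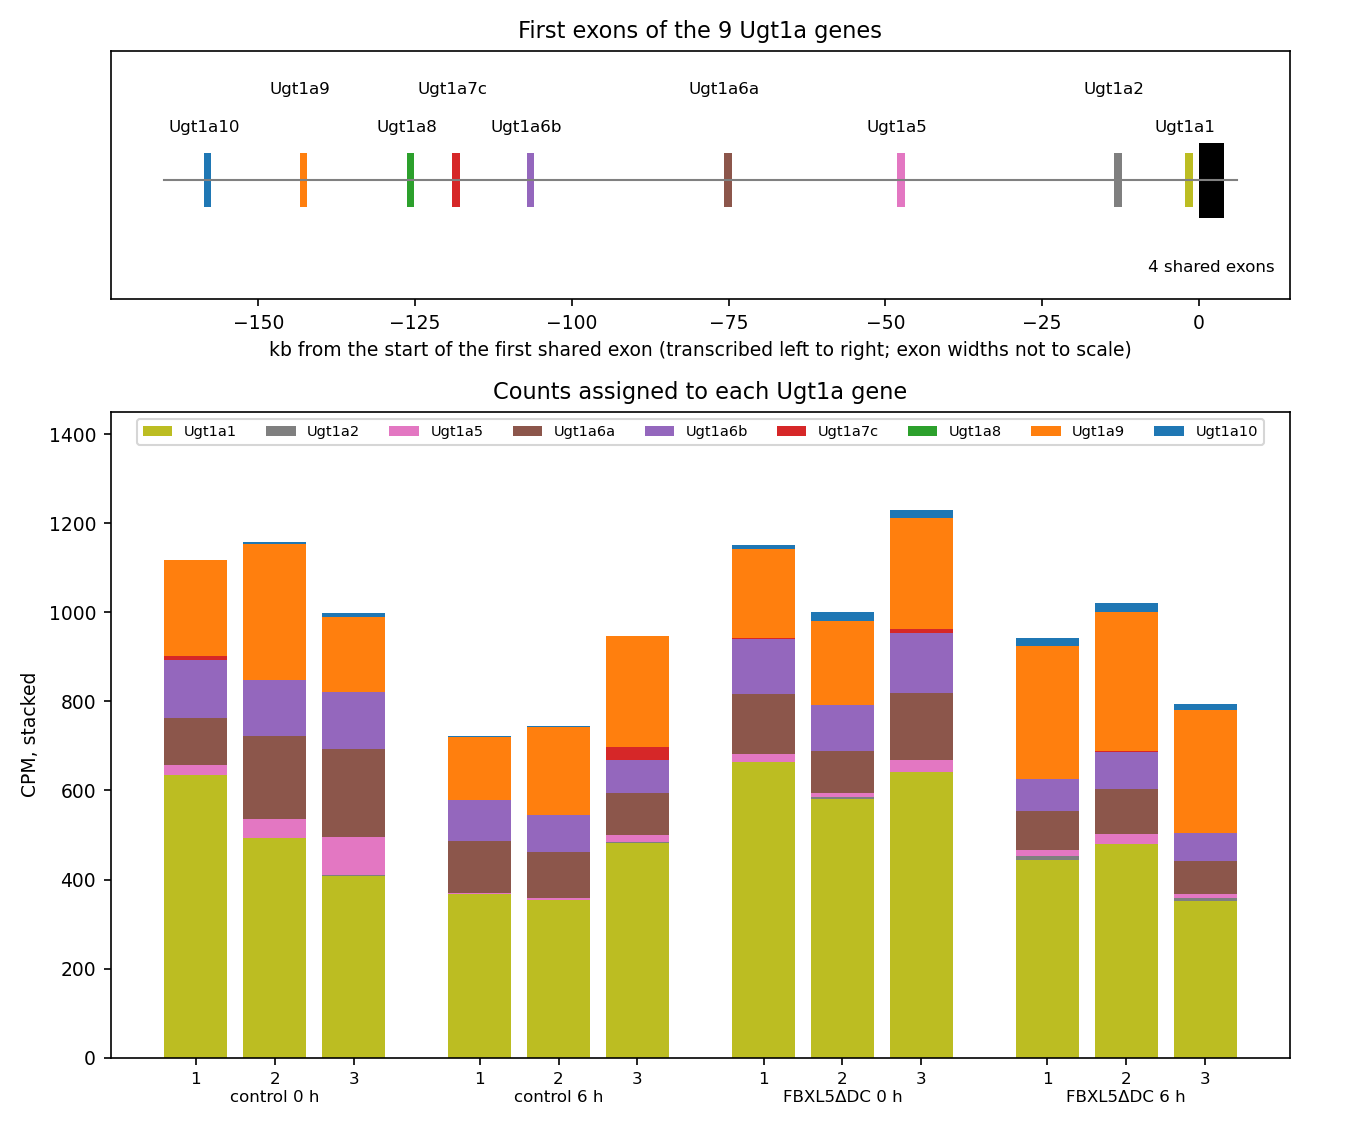
Top, the first exons of the 9 Ugt1a genes by distance in kb from the first shared exon. Bottom, CPM of each Ugt1a gene stacked for each of the 12 libraries. Ugt1a1 and Ugt1a9 make up most of every bar, and the control bars reach 1000 to 1159 CPM at 0 h and 723.9 to 945.5 CPM at 6 h.

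Elsewhere the members sit in clusters too. On chromosome 5, 13 of them, the 10 Ugt2a and Ugt2b genes followed by Sult1b1, Sult1d1 and Sult1e1, lie between chr5:86889767 and chr5:87591594. Both Ugt3a genes are neighbours on chromosome 15. The 8 Sult2a genes occupy chr7:13623967-14494230, and Sult1a1 lies apart at chr7:126672865-126676432. None of the Ugt3a, Ugt2b or Sult genes shares exon bases on its strand with another member, whereas Ugt2a1 and Ugt2a2 share most of theirs. Sult1a1 is overlapped on the other strand by Sgf29, over 61 of its 1507 exon bases (4.0%). Sgf29 reads from that stretch could not be told apart from Sult1a1 if counting ignored strand.

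Levels between genes were compared as CPM per kb of annotated exon, averaged over the 12 libraries. The UGT transcripts with the highest levels were Ugt2b5 at 449, Ugt2b36 at 248, Ugt1a1 at 221, Ugt2b1 at 140 and Ugt1a9 at 107 CPM per kb. Enzymes of the Ugt2b group act on steroids, bile acids and drugs, and Ugt1a1 is the bilirubin-conjugating enzyme. In untreated control livers Ugt2b5 stood at 409.6 to 534.4 CPM per kb, above all 3 values of Ugt2b36 at 204.0 to 285.6 CPM per kb. Ugt2b36 overlapped there with Ugt1a1, whose values ran from 183.5 to 285.5 CPM per kb. A lower tier held Ugt2b34 (105), Ugt3a2 (104), Ugt2a3 (88.3), Ugt2b35 (81.4), Ugt2b38 (45.4), Ugt1a6b (42.3), Ugt3a1 (29.9) and Ugt1a6a (27.9 CPM per kb). The Ugt2b38 and Ugt2b5 values are less certain, since 34.1% of the 50-base words of the Ugt2b38 transcript also occur in Ugt2b5. Of those of Ugt2b5, 41.7% occur in other genes and 34.8% in Ugt2b38.

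Among SULT genes the liver transcripts were few. Sult2a8, a hepatic enzyme that acts on bile acids, had 148 CPM per kb, and Sult1a1, the phenol sulfotransferase that sulfates acetaminophen, had 125 CPM per kb. Sult1d1, which acts on catecholamines and other small phenols in the mouse, had 44.3 CPM per kb. The next in order were Sult1b1 (3.51), Sult5a1 (1.13), Sult2a7 (0.832) and Sult1e1 (0.832 CPM per kb). In untreated control livers Sult2a8 (165.0 to 216.5 CPM per kb) lay above Sult1a1 (125.4 to 136.7 CPM per kb). Per kb, the order was the other way round in all 6 treated livers. That reversal depends on the exon lengths used, 3284 bases for Sult2a8 and 1507 bases for Sult1a1. In CPM without division by length, Sult2a8 stayed above Sult1a1 in all 6 treated livers.

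**Figure D2:**
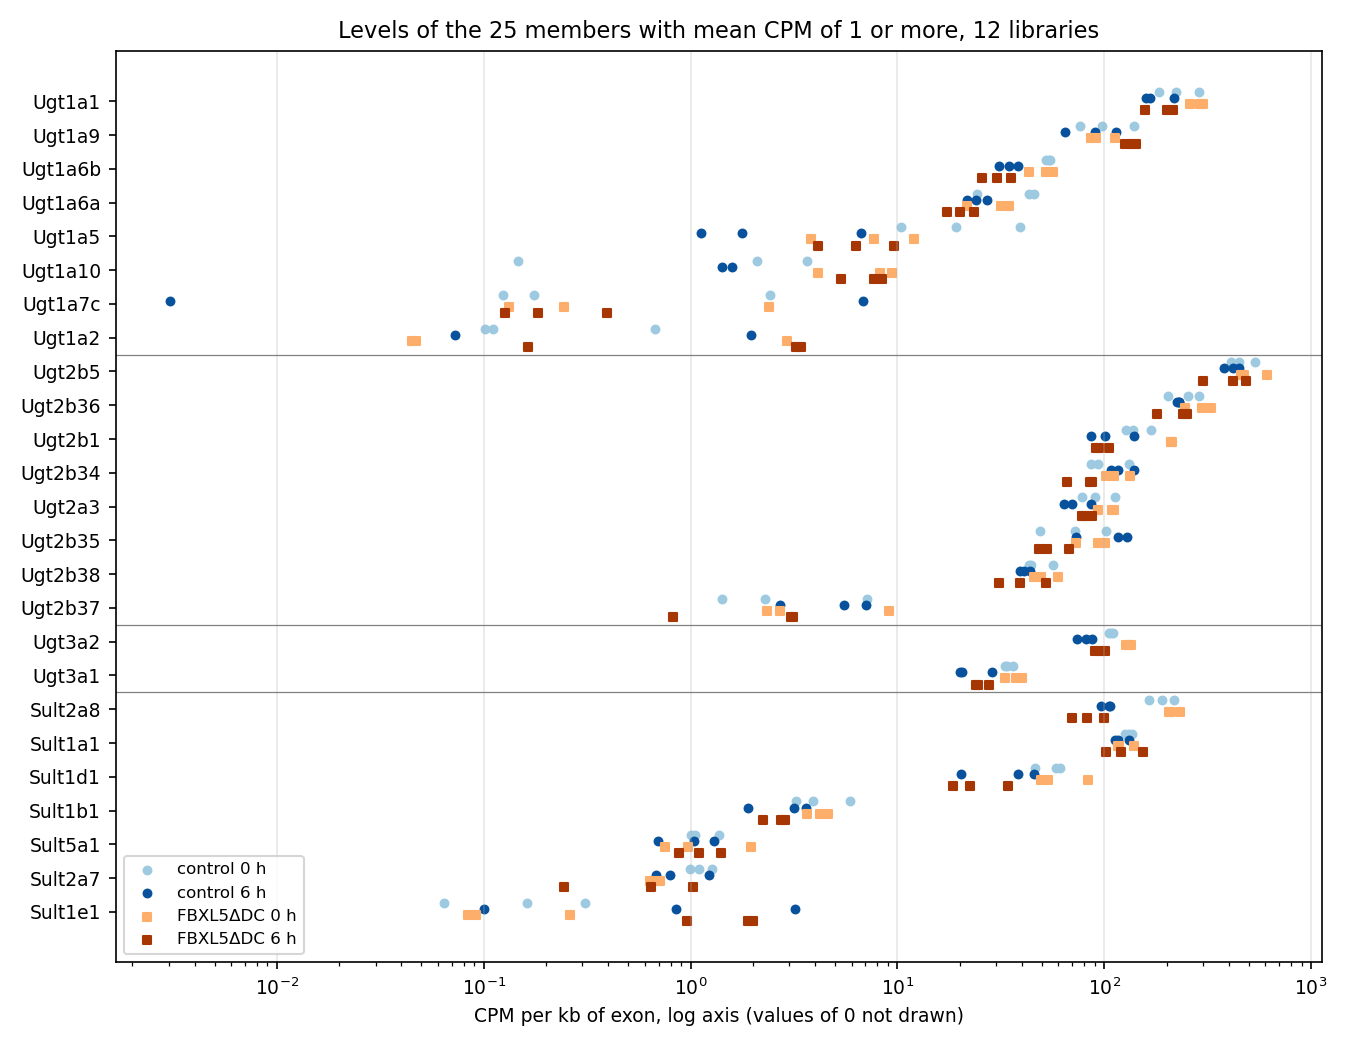
Level of each of the 25 members in every library, as CPM per kb of exon on a log axis, ordered by family and mean level. Ugt2b5 is the highest, at a mean of 449 CPM per kb, and Sult2a8, Sult1a1 and Sult1d1 stand far above the other 4 SULT genes.

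The other 17 members were below 1 CPM on average. Of these, 9 had no count in any library: Ugt2a2, Sult1c1, Sult2a3, Sult2a4, Sult2a5, Sult2a6, Sult3a1, Sult3a2 and Sult6b2. Ugt1a8, Ugt2a1, Sult1c2, Sult2a1, Sult2a2, Sult2b1, Sult4a1 and Sult6b1 had counts in 1 or more libraries. Only Sult1c2 (mean 0.999 CPM) and Ugt1a8 (mean 0.0533 CPM, at most 15 counts in a library) of the 17 entered the tests. Ugt1a8 lay below 12 counts per library on average in each group, a level treated as undetected, and no fold is given for it. In mouse liver several Sult2a genes and Sult3a1 are known for female-predominant expression, and these mice were male. Within the Sult2a cluster the counts fell almost only on Sult2a8 and, far lower, on Sult2a7, which adjoin each other at its end. The part of sex in this was not tested, since all mice were male.

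In control livers, 5 of the 27 tested members were lower 6 h after acetaminophen and none was higher (edgeR quasi-likelihood test, Benjamini-Hochberg adjusted p below 0.05 over all 17585 genes tested). Over all tested genes 4.2% were called lower and 6.36% higher in this comparison. In FBXL5ΔDC livers 8 members were lower and 1 was higher, where 15.1% of all tested genes were lower and 15% higher. The median log2 change of the tested members was -0.35 in control livers, beside 0.03 for all tested genes, and -0.45 in FBXL5ΔDC livers, beside 0.02. The control median was -0.21 without untreated control replicate 1 and -0.24 without treated control replicate 1. In direction, 21 of 27 pointed down in control and 22 of 27 in FBXL5ΔDC livers. A gene called lower in whole tissue can reflect fewer cells that hold the transcript or less transcript per cell, and these cannot be told apart. Beside the count of 0 higher members in control livers, 10 members had an unadjusted p below 0.05 in edgeR in either direction, against 24.7% of all tested genes, and DESeq2 called 1 member higher, Sult1e1. In FBXL5ΔDC livers 14 members had such a p, against 40.4% of all tested genes.

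The groups were also compared by overlap alone. In control livers 6 members had all treated values below all untreated ones and none had all above, against 13.4% and 15.3% of all tested genes. In FBXL5ΔDC livers 11 were all below and 2, Ugt1a9 and Sult1e1, all above, against 24.5% and 24.2%. Over all tested genes 39.8% of the calls in control livers were lower, and 50.7% with upper-quartile scaling, which called the same 5 members. Leaving out untreated control replicate 2 or 3, or treated control replicate 1, left 2 members lower in control livers, Sult2a8 and Ugt1a6b.

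**Figure D3:**
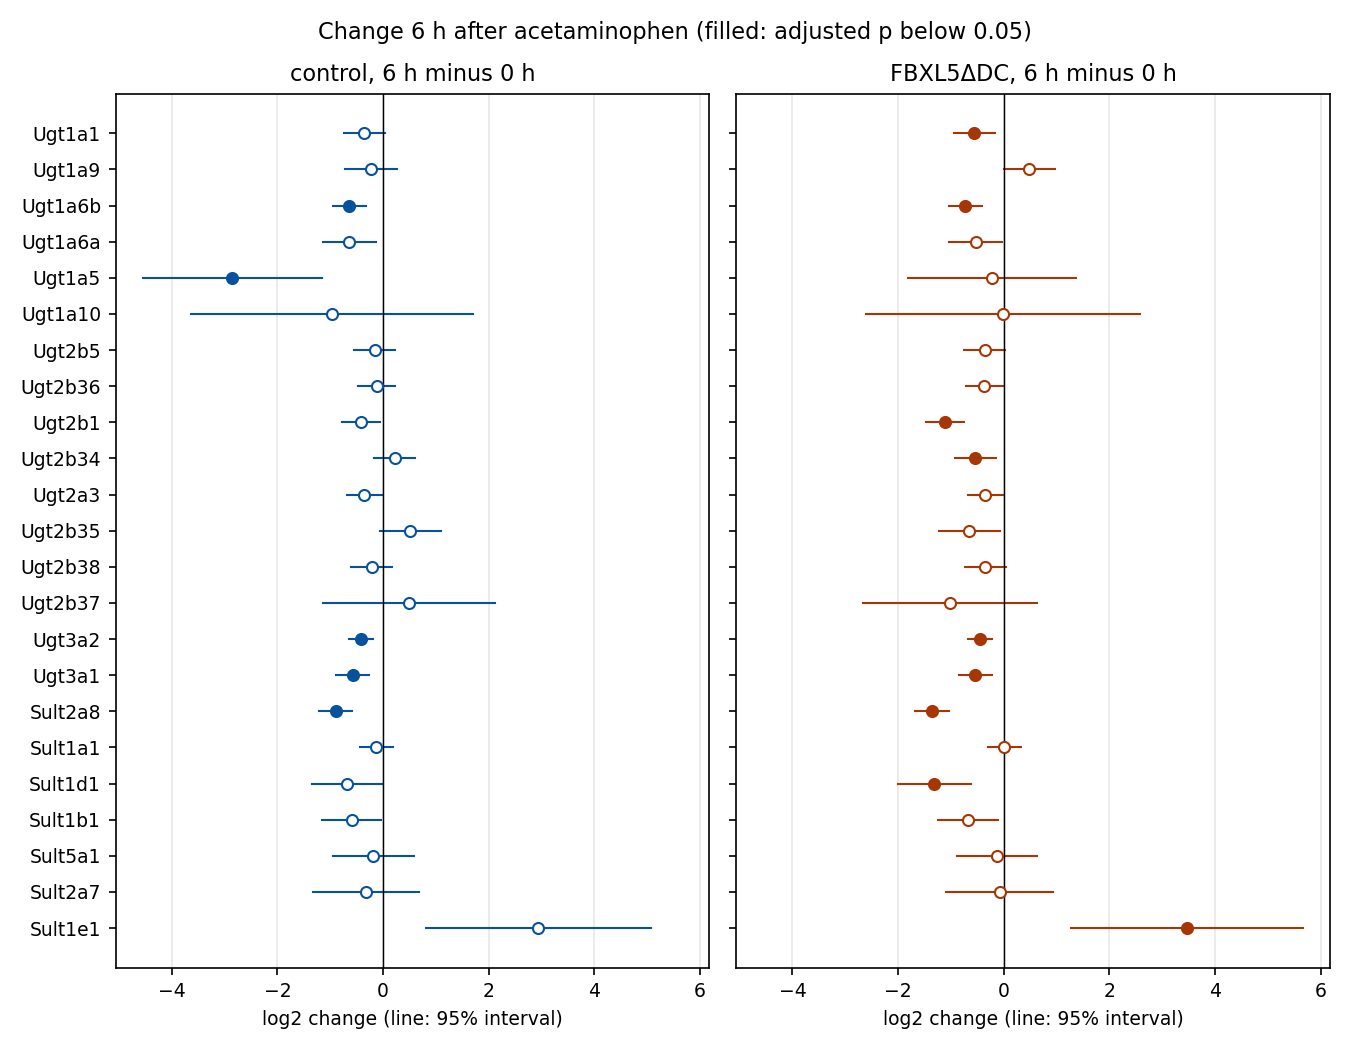
Log2 change from 0 h to 6 h of 23 members with mean CPM of 1 or more, with 95% intervals, in control (left) and FBXL5ΔDC livers (right). Filled points passed the test. Ugt1a7c and Ugt1a2 are left out because their intervals span more than the axis. In the right panel Sult1e1 is the only filled point to the right of 0, and the control panel has none there.

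Sult2a8 had the smallest adjusted p of all members in both genotypes. It was at 542, 711 and 626 CPM in untreated and 316, 346 and 349 CPM in treated control livers. In FBXL5ΔDC livers it was at 683, 760 and 676 CPM at 0 h and 328, 270 and 229 CPM at 6 h. No treated value reached any untreated one in either genotype. The log2 change was -0.89 (SE 0.15, edgeR adjusted p = 0.00297) in control and -1.36 (SE 0.15, edgeR adjusted p = 9.95e-05) in FBXL5ΔDC livers. Its gene is at chr7:14410686-14446769 on the reverse strand.

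Sult1d1 (chr5:87554645-87569027, reverse strand) fell in FBXL5ΔDC livers. There it was at 205, 121 and 132 CPM at 0 h and 54.9, 84.0 and 45.5 CPM at 6 h, without overlap, a log2 change of -1.31 (SE 0.31, edgeR adjusted p = 0.00819). Control livers had 144, 150 and 114 CPM at 0 h and 94.2, 50 and 112 CPM at 6 h. These control groups did not overlap either, but the highest treated value lay just under the lowest untreated one, and the change of -0.67 (SE 0.31) did not pass the test (edgeR adjusted p = 0.203).

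Sult1a1, the acetaminophen sulfotransferase, showed no difference that passed the test. Its values were 199, 206 and 189 CPM in untreated and 198, 176 and 170 CPM in treated control livers. In FBXL5ΔDC livers they were 209, 176 and 177 CPM at 0 h and 181, 232 and 154 CPM at 6 h. The groups overlapped in both genotypes, with log2 changes of -0.12 (95% interval -0.44 to 0.19) in control and 0.01 (-0.30 to 0.32) in FBXL5ΔDC livers. Changes within these intervals remain possible.

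Sult1e1, the estrogen sulfotransferase, was the only member called higher, in FBXL5ΔDC livers. It stood at 0.114, 0.323 and 0.104 CPM at 0 h and 2.50, 2.36 and 1.19 CPM at 6 h there. Control livers had 0.0796, 0.382 and 0.201 CPM at 0 h, then 1.05, 0.124 and 3.97 CPM at 6 h. All treated FBXL5ΔDC values lay above the untreated ones, whereas the second treated control liver lay within the untreated range. The fitted log2 change was 3.47 (95% interval 1.28 to 5.66, edgeR adjusted p = 0.0207) in FBXL5ΔDC and 2.94 (95% interval 0.82 to 5.07, edgeR adjusted p = 0.0759) in control livers. Its untreated libraries held 6 to 28 counts, some of them under the 12-count limit, and the size of the fold is poorly known. Without untreated FBXL5ΔDC replicate 1 or 3 the FBXL5ΔDC call was lost (edgeR adjusted p = 0.077 or 0.0789). In control livers the change was called without treated replicate 2 (3.49, edgeR adjusted p = 0.0121) and was 1.40 (edgeR adjusted p = 0.375) without treated replicate 3.

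Of the remaining SULT genes, Sult1b1, which sulfates thyroid hormones, was at 9.01 to 16.4 CPM in untreated and 5.28 to 9.99 CPM in treated control livers. In FBXL5ΔDC livers it was at 10.2 to 12.9 CPM at 0 h and 6.23 to 7.94 CPM at 6 h, without overlap, with a log2 change of -0.68 (SE 0.26, edgeR adjusted p = 0.0678). It was called there without untreated control replicate 3 (edgeR adjusted p = 0.0486) or treated control replicate 3 (edgeR adjusted p = 0.0203), and with DESeq2 (DESeq2 adjusted p = 0.0492). Sult5a1 ranged from 3.08 to 8.62 CPM over all libraries and Sult2a7 from 0.313 to 1.63 CPM, neither with a call. Summed over the 21 SULT genes, the family had 980 ± 95.1 CPM (SD, n = 3) in untreated and 620 ± 30.4 CPM in treated control livers. The corresponding sums were 1070 ± 59.8 and 542 ± 88.0 CPM in FBXL5ΔDC livers, and Sult2a8 made up the larger part of them.

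**Figure D4:**
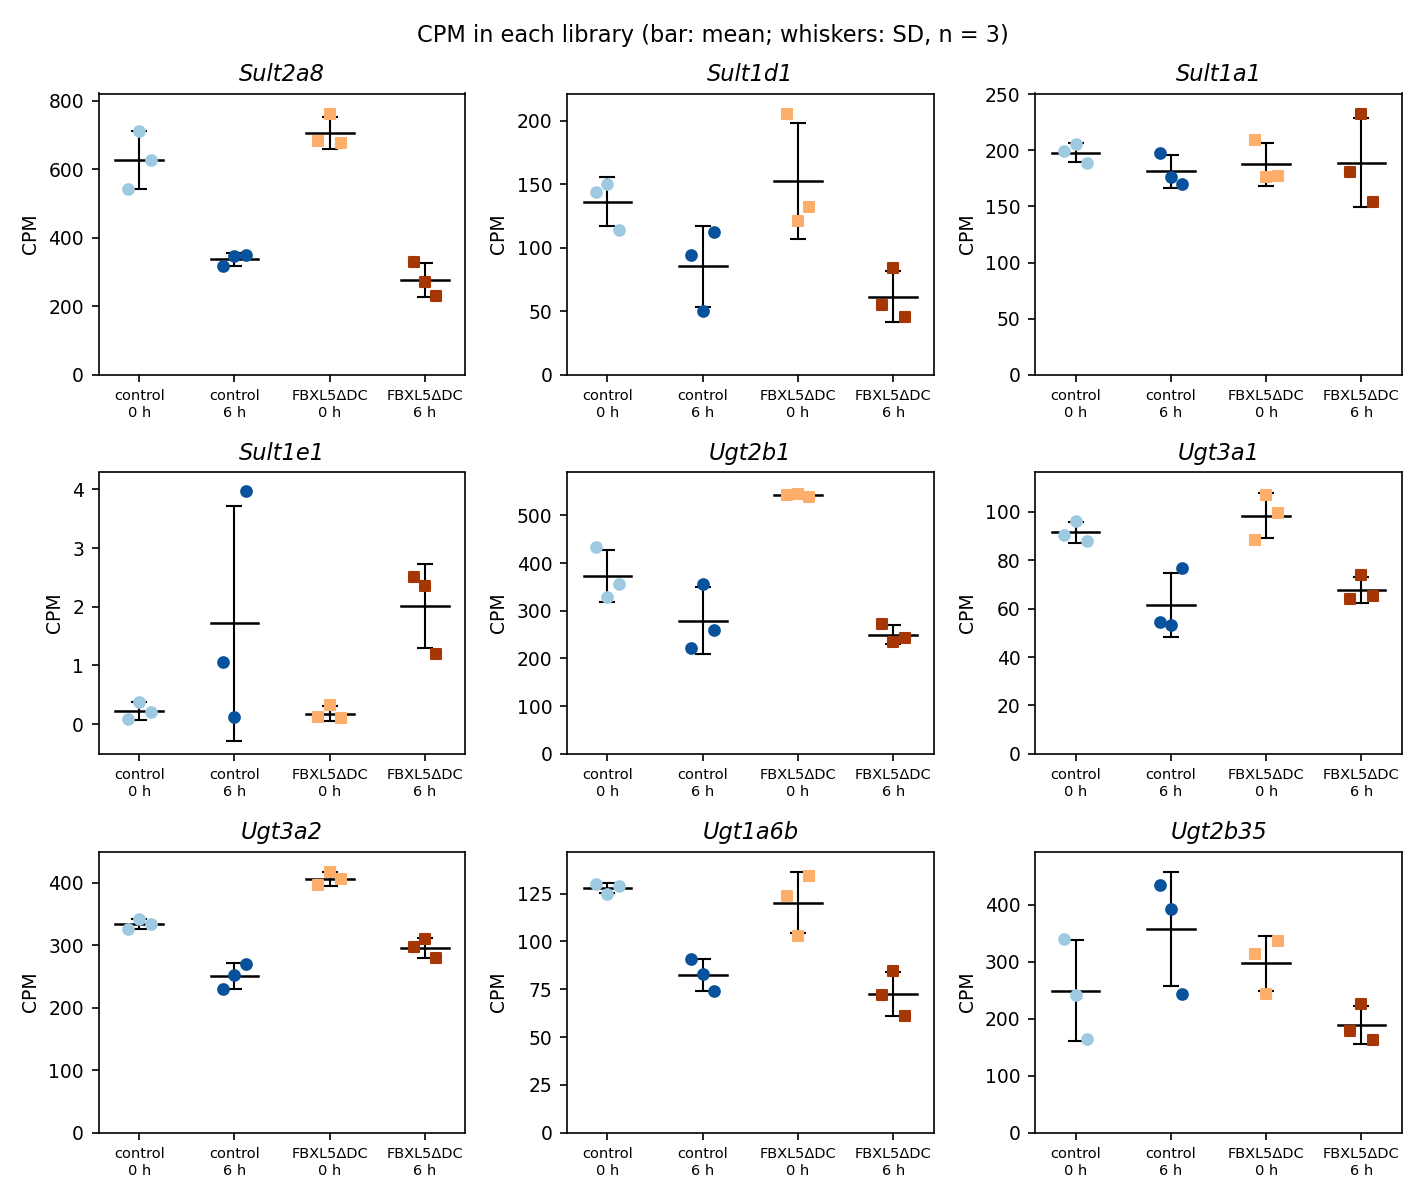
CPM of 9 members in each library by group, with the mean (bar) and SD (whiskers, n = 3). Sult2a8, Ugt3a2 and Ugt1a6b separate 0 h from 6 h livers in both genotypes, Sult1a1 does not, and the scale of Sult1e1 ends near 4 CPM.

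Of the 9 Ugt1a rows, 2 were lower in control livers (Ugt1a6b and Ugt1a5) and 2 in FBXL5ΔDC livers (Ugt1a6b and Ugt1a1). Over all tested genes 4.2% were called lower in control and 15.1% in FBXL5ΔDC livers. Ugt1a6b (chr1:88103252-88219003), one of a pair of mouse enzymes for small planar phenols, was at 130, 125 and 129 CPM in untreated and 90.7, 82.8 and 74.1 CPM in treated control livers. The FBXL5ΔDC values were 124, 103 and 134 CPM at 0 h and 72.0, 84.4 and 61.3 CPM at 6 h. Neither genotype had overlapping groups. Its log2 change was -0.64 (SE 0.14, edgeR adjusted p = 0.0135) in control and -0.73 (SE 0.14, edgeR adjusted p = 0.00227) in FBXL5ΔDC livers. The closely related Ugt1a6a changed by -0.64 (SE 0.23, edgeR adjusted p = 0.104) and -0.53 (SE 0.23, edgeR adjusted p = 0.105), with overlapping groups, and since the pair resemble each other their counts may be mixed. Without untreated control replicate 1, Ugt1a6a was called lower in control (-0.87, edgeR adjusted p = 0.0251) and FBXL5ΔDC livers (-0.53, edgeR adjusted p = 0.0421).

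Ugt1a1 was at 664, 580 and 642 CPM in untreated and 445, 480 and 351 CPM in treated FBXL5ΔDC livers, without overlap. The log2 change of -0.56 (SE 0.18) passed the test there (edgeR adjusted p = 0.0314), but not when untreated FBXL5ΔDC replicate 1, 2 or 3 or treated FBXL5ΔDC replicate 1 or 3 was left out (edgeR adjusted p from 0.0516 to 0.121). In control livers it was at 635, 494 and 408 CPM at 0 h and 368, 354 and 481 CPM at 6 h, an overlapping difference of -0.35 (SE 0.18, edgeR adjusted p = 0.249). Ugt1a1 lies at chr1:88211959-88218997, nearest to the shared exons.

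Ugt1a9, which accepts bulky and simple phenols, pointed the other way in FBXL5ΔDC livers. It had 200, 188 and 248 CPM there at 0 h and 299, 313 and 277 CPM at 6 h, so all treated values were above the untreated ones. The log2 change of 0.48 had a 95% interval from 0.00 to 0.97 and an edgeR adjusted p of 0.127, which was 0.0161 when the FBXL5ΔDC libraries were fitted alone. Control livers had 214, 305 and 168 CPM at 0 h and 142, 198 and 249 CPM at 6 h, with a change of -0.22 (SE 0.22, edgeR adjusted p = 0.617). As a share of all Ugt1a counts, Ugt1a9 made up 16.83% to 26.30% in untreated control and 17.36% to 20.19% in untreated FBXL5ΔDC livers. At 6 h its share was 19.64% to 26.52% in control and 30.63% to 34.89% in FBXL5ΔDC livers, above every other library.

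The less abundant Ugt1a rows varied widely between replicates. Ugt1a5 was at 22.9, 42.4 and 86.2 CPM in untreated and 2.48, 3.92 and 14.7 CPM in treated control livers, a log2 change of -2.85 (SE 0.76, edgeR adjusted p = 0.0416). That call was lost without untreated control replicate 2 or 3, untreated FBXL5ΔDC replicate 1, treated control replicate 1 or 2, or treated FBXL5ΔDC replicate 1 (edgeR adjusted p from 0.0593 to 0.118). In FBXL5ΔDC livers Ugt1a5 was at 16.9, 8.46 and 26.5 CPM at 0 h and at 13.9, 21.2 and 9.13 CPM at 6 h, with overlap. Ugt1a7c ranged from 0 to 28.7 CPM within treated control livers alone, and Ugt1a2 from 0.361 to 7.52 CPM within treated FBXL5ΔDC livers. Ugt1a10 was at 0.332, 4.74 and 8.29 CPM in untreated and 3.20, 3.58 and 0 CPM in treated control livers. Its FBXL5ΔDC values lay above the control values of the same time, at 9.32, 21.3 and 18.7 CPM and then 17.4, 19.0 and 12.1 CPM, and neither genotype comparison passed the test (edgeR adjusted p = 1 at 0 h and 0.216 at 6 h). An antisense gene over the shared exons, Gm20528, had at most 16 counts in a library and none in 7 libraries.

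Added into 1 row, the Ugt1a genes had 1117, 1159 and 1000 CPM in untreated and 723.9, 745.2 and 945.5 CPM in treated control livers, without overlap. The log2 change was -0.44 (SE 0.14, 95% interval -0.75 to -0.13), which did not pass the test (edgeR adjusted p = 0.0711). It did with DESeq2 (-0.45, DESeq2 adjusted p = 0.03), with upper-quartile scaling (-0.51, edgeR adjusted p = 0.0359) and without the third treated control library (-0.57, edgeR adjusted p = 0.0232). In FBXL5ΔDC livers the sum was 1151, 1001 and 1229 CPM at 0 h and 942.4, 1020 and 793.4 CPM at 6 h, a change of -0.30 (SE 0.14, edgeR adjusted p = 0.146). The lowest untreated and highest treated values overlapped there.

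Ugt2b1 had the largest called fall among the UGT genes of FBXL5ΔDC livers. It was at 543, 546 and 538 CPM at 0 h and 272, 234 and 243 CPM at 6 h, a log2 change of -1.12 (SE 0.17, edgeR adjusted p = 5.66e-04). Control livers started lower, at 434, 328 and 356 CPM, and reached 221, 357 and 259 CPM at 6 h, with overlap and a change of -0.42 (SE 0.17, edgeR adjusted p = 0.134). Without treated control replicate 2 that change was -0.63 and passed the test (edgeR adjusted p = 0.0158). The gene is at chr5:86916638-86926530 on the reverse strand.

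Ugt2b34 and Ugt2b35 pointed in different directions in the 2 genotypes. Ugt2b34 was at 568, 404 and 370 CPM in untreated and 599, 500 and 463 CPM in treated control livers, a change of 0.22 (SE 0.18, edgeR adjusted p = 0.519). In FBXL5ΔDC livers it went from 482, 440 and 574 CPM to 369, 375 and 285 CPM, without overlap, a log2 change of -0.54 (SE 0.18, edgeR adjusted p = 0.0397). That call was lost without untreated control replicate 2, untreated FBXL5ΔDC replicate 1 or 3, or treated FBXL5ΔDC replicate 1, 2 or 3 (edgeR adjusted p from 0.0508 to 0.154). Ugt2b35 was at 341, 242 and 164 CPM in untreated and 435, 392 and 244 CPM in treated control livers, a change of 0.52 (SE 0.26, edgeR adjusted p = 0.253). Its FBXL5ΔDC values were 313, 244 and 337 CPM at 0 h and 178, 226 and 163 CPM at 6 h, a change of -0.65 (SE 0.27, edgeR adjusted p = 0.0825). This passed the test without untreated control replicate 3 (edgeR adjusted p = 0.0493) or treated control replicate 3 (edgeR adjusted p = 0.0418).

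The most abundant Ugt2b transcripts passed no test. Ugt2b5 was at 993, 833 and 761 CPM in untreated and 703, 837 and 777 CPM in treated control livers. In FBXL5ΔDC livers its values were 881, 853 and 1140 CPM at 0 h and 901, 782 and 558 CPM at 6 h. Ugt2b36 was at 588, 525 and 420 CPM in untreated and 463, 475 and 473 CPM in treated control livers. The FBXL5ΔDC values of Ugt2b36 were 610, 505 and 672 CPM at 0 h and 496, 518 and 370 CPM at 6 h. Their groups overlapped in both genotypes, with log2 changes between -0.12 and -0.37. Ugt2a3 had log2 differences of -0.35 in control and -0.35 in FBXL5ΔDC livers (SE 0.15 in each, edgeR adjusted p = 0.169 and 0.101), without overlap in the latter. A fit of the FBXL5ΔDC libraries alone called it lower (edgeR adjusted p = 0.0302), together with Ugt1a6a, Ugt2b35 and Sult1b1, and so 12 members in place of 8, with 16.9% of all tested genes lower. Ugt2b38 had differences of -0.21 and -0.35, and Ugt2b37 varied from 1.56 to 17.3 CPM. Without treated FBXL5ΔDC replicate 1, Ugt2b38 was called lower there (-0.57, edgeR adjusted p = 0.0328).

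Both Ugt3a genes fell in both genotypes. Ugt3a2 (chr15:9335550-9370955) was at 326, 342 and 334 CPM in untreated and 230, 253 and 271 CPM in treated control livers. In FBXL5ΔDC livers it was at 396, 417 and 406 CPM at 0 h and 297, 311 and 280 CPM at 6 h. The replicates were close together and no groups overlapped, with log2 changes of -0.41 (SE 0.10, edgeR adjusted p = 0.0241) and -0.45 (SE 0.10, edgeR adjusted p = 0.00553). Ugt3a1 (chr15:9276888-9315032) was at 90.4, 96.2 and 88.0 CPM in untreated and 54.5, 53.3 and 76.9 CPM in treated control livers. Its FBXL5ΔDC values were 88.6, 107 and 99.7 CPM and then 63.9, 73.8 and 65.3 CPM. The log2 changes of Ugt3a1 were -0.57 (SE 0.14, edgeR adjusted p = 0.0259) and -0.54 (SE 0.14, edgeR adjusted p = 0.0136). In control livers the call of Ugt3a1 was lost without untreated replicate 1, 2 or 3 or treated replicate 1 or 2 (edgeR adjusted p up to 0.0973). That of Ugt3a2 was lost without untreated replicate 1, 2 or 3 or treated replicate 1 (edgeR adjusted p up to 0.0912), and both were lost when only the control libraries were fitted. In FBXL5ΔDC livers the call of Ugt3a1 was lost without untreated replicate 2 or treated replicate 1 (edgeR adjusted p = 0.0592 and 0.0518).

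Between genotypes no member passed the test at 0 h, where no gene of the table did with edgeR (0% called) and DESeq2 called 8 higher and 6 lower genes, none of them a member. At an unadjusted p below 0.05 there were 2 members, Ugt2b1 (0.54, SE 0.17) and Ugt3a2 (0.28, SE 0.10), both with all FBXL5ΔDC values above all control values. Over all tested genes 2.64% had such a p. Groups did not overlap for 4 members, with Ugt1a10, Ugt2b1 and Ugt3a2 above and Sult2a7 below in FBXL5ΔDC livers, against 5.94% and 5.8% of all tested genes. Ugt2b1 was the clearest of them, at 328 to 434 CPM in control and 538 to 546 CPM in FBXL5ΔDC livers.

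At 6 h no member passed the edgeR test between genotypes either, where 1.35% of all tested genes were called higher and 4.51% lower in FBXL5ΔDC livers. Unadjusted p-values below 0.05 belonged to 5 members: Ugt2b35 (-0.92, edgeR adjusted p = 0.0636), Ugt2b34 (-0.60, edgeR adjusted p = 0.071), Ugt1a9 (0.59, edgeR adjusted p = 0.137), Ugt3a2 (0.24, edgeR adjusted p = 0.184) and Ugt1a10 (2.83, edgeR adjusted p = 0.216). Over all tested genes 22.7% had such a p. All FBXL5ΔDC values lay above the control values for Ugt1a9, Ugt1a10 and Ugt3a2 and below them for Ugt2b34 and Ugt2b35, against 9.74% and 11.2% of all tested genes. DESeq2 called Ugt2b35 (-0.89, DESeq2 adjusted p = 0.0164) and Ugt2b34 (-0.58, DESeq2 adjusted p = 0.0334) lower, a tool that called 7.97% of all tested genes lower here. Without the third treated control library, edgeR called both lower, at -1.13 (edgeR adjusted p = 0.00631) and -0.68 (edgeR adjusted p = 0.0188). In that fit Ugt1a9 (0.80, edgeR adjusted p = 0.019) and Ugt3a1 (0.33, edgeR adjusted p = 0.048) were higher in FBXL5ΔDC livers. That fit called 10.8% of all tested genes higher and 13.6% lower, so 2 higher and 2 lower of 27 members are no more than the share over all genes. Leaving out untreated control replicate 1 or 3 gave 1 lower member, Ugt2b35 (edgeR adjusted p = 0.0484 and 0.0463). Those fits called 3.49% and 3.46% of all tested genes lower.

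The difference between the responses, the interaction, was called for none of the 27 tested members, and over all genes 0.0341% were called higher and 0.256% lower. DESeq2 also called no member. An unadjusted p below 0.05 was found for 6 members, against 14.5% of all tested genes. The smallest were those of Ugt2b35 (-1.17, SE 0.37, edgeR adjusted p = 0.179), Ugt2b1 (-0.70, SE 0.23, edgeR adjusted p = 0.194) and Ugt2b34 (-0.76, SE 0.26, edgeR adjusted p = 0.201). Without the third treated control library, Ugt2b35 (-1.38, edgeR adjusted p = 0.0176) and Ugt2b34 (-0.84, edgeR adjusted p = 0.0451) were lower and Ugt1a5 (3.75, edgeR adjusted p = 0.0314) was higher. That fit called 6.36% of all tested genes higher and 8.22% lower for the interaction, so the members' 1 higher and 2 lower are no more than the share over all genes. Ugt2b1 was then at -0.75 with an edgeR adjusted p of 0.0506. Among the fits made, these differences between responses passed the test only with that library left out, and the Ugt1a5 row is among those whose counts may be mixed with others.

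Genes listed for the supply, transport and use of UDP-glucuronic acid, with the more general nucleotide carrier Slc35b1, were called only in the upward direction. Of the 6 genes listed, 4 were higher in treated control livers and none lower, against 6.36% and 4.2% of all tested genes. Ugdh, which oxidises UDP-glucose to UDP-glucuronic acid, was at 221, 175 and 134 CPM in untreated and 509, 386 and 450 CPM in treated control livers, without overlap, a log2 change of 1.34 (SE 0.20, edgeR adjusted p = 0.00175). Uxs1, which turns UDP-glucuronic acid into UDP-xylose, changed by 1.15, the carrier Slc35d1, which brings UDP-glucuronic acid into the endoplasmic reticulum, by 0.52, and the nucleotide carrier Slc35b1 by 0.60. In FBXL5ΔDC livers 2 of the 6 were higher: Ugdh, from 179, 177 and 222 CPM to 353, 400 and 266 CPM (0.82, SE 0.20, edgeR adjusted p = 0.00808), and Slc35d1 (0.63, SE 0.14, edgeR adjusted p = 0.00443). The list's median change was 0.56 in control and 0.39 in FBXL5ΔDC livers, where 15% of all tested genes were called higher.

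Among 6 genes for making, moving and breaking down the sulfate donor, Papss2, the main PAPS synthase of liver, was lower in both genotypes. It was at 120, 144 and 138 CPM in untreated and 88.4, 68.8 and 48.6 CPM in treated control livers (-0.97, SE 0.18, edgeR adjusted p = 0.00672). The FBXL5ΔDC values were 164, 144 and 131 CPM at 0 h and 60.7, 69.9 and 71.2 CPM at 6 h (-1.12, SE 0.18, edgeR adjusted p = 9.46e-04). Untreated and treated livers did not overlap. The Golgi PAPS carriers split in FBXL5ΔDC livers, with Slc35b2 lower (-0.62) and Slc35b3 higher (1.21, edgeR adjusted p = 0.0112). None of the 3 tested sulfate uptake genes was called in any comparison.

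Conjugate export pumps and hydrolases were covered by 12 genes, of which Sts was not analysed here. Of 6 export pumps, Abcc3, which sends glucuronides into blood, and Abcc6 were lower in control livers, and Abcc4 and Abcc1 were higher. Abcc3 was at 485, 510 and 424 CPM in untreated and 335, 253 and 335 CPM in treated control livers (-0.62, SE 0.14, edgeR adjusted p = 0.0133). Abcc4, another pump towards blood, was at 3.24, 3.62 and 2.42 CPM and then 8.10, 12.4 and 4.41 CPM (1.43, SE 0.40, edgeR adjusted p = 0.039). In FBXL5ΔDC livers these 4 had the same calls, and the canalicular pumps Abcc2 (-0.46) and Abcg2 (-0.56) were lower as well. Of the 5 tested hydrolase genes, none was called in control livers. In FBXL5ΔDC livers the glucuronidase Gusb was higher (0.68), and the sulfatase Arsa and the carboxylesterases Ces1d and Ces1g were lower. Whether Arsa, Ces1d and Ces1g act on products of the UGT and SULT enzymes was not tested.

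**Figure D5:**
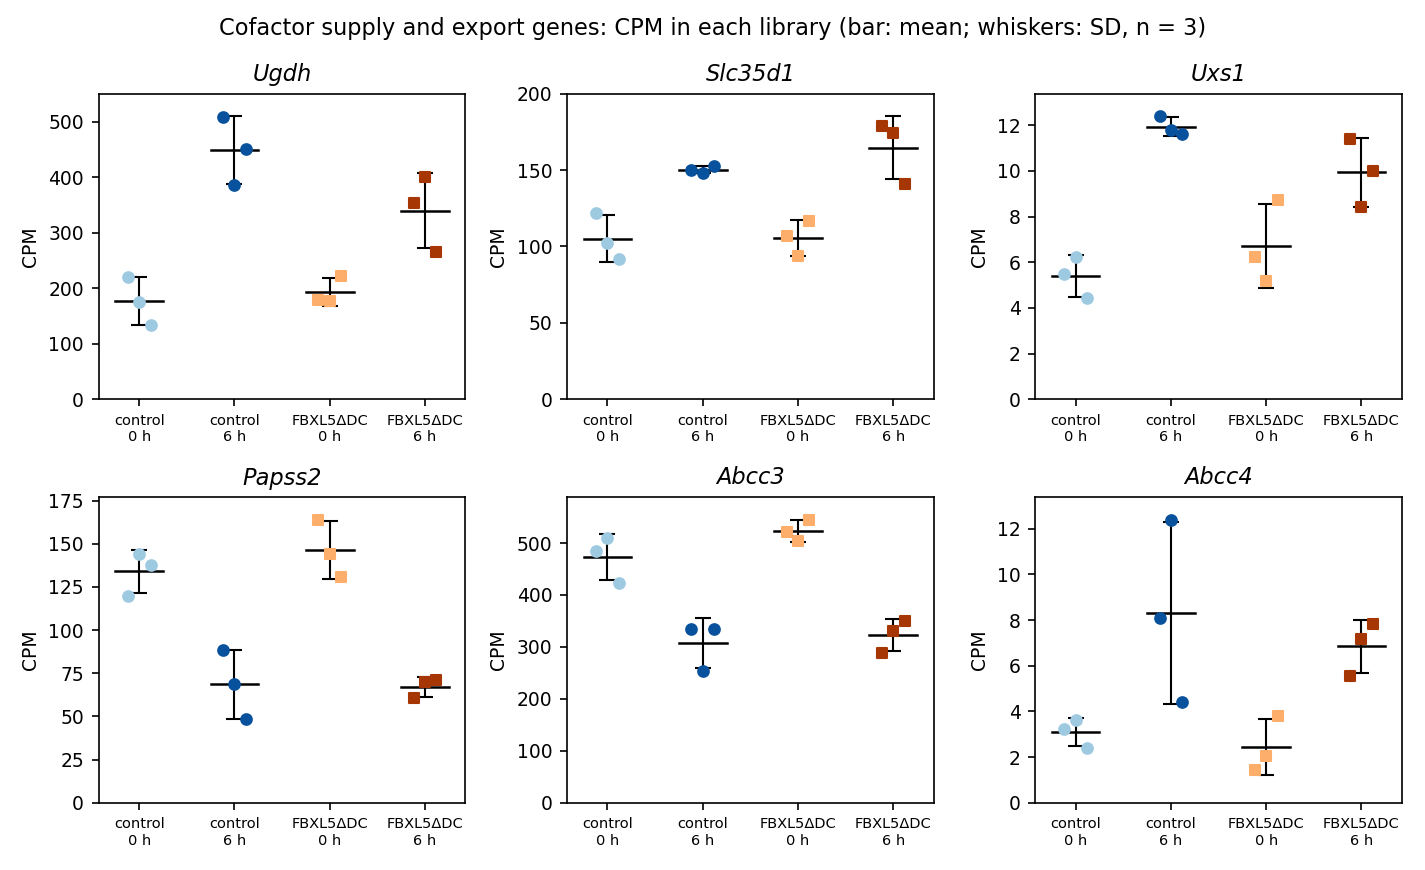
CPM of 6 cofactor and export genes in each library by group, with the mean (bar) and SD (whiskers, n = 3). Ugdh and Slc35d1 are higher at 6 h in both genotypes, and Papss2 and Abcc3 are lower.

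Among nuclear receptors and factors known to act on these genes, those called in treated control livers were all lower. They were the xenobiotic receptors Nr1i3 (-1.51, edgeR adjusted p = 0.00714) and Nr1i2 (-0.44, edgeR adjusted p = 0.0461) and the fatty acid receptor Ppara (-1.09, edgeR adjusted p = 0.0253). In FBXL5ΔDC livers Nr1i3 (-2.76), the dioxin receptor Ahr (-2.01) and the retinoid receptor Rxra (-0.57) were lower, as were Ppara and the bile acid receptor Nr1h4, and Arnt, the partner of Ahr, was higher (0.93, edgeR adjusted p = 0.00158). At 6 h FBXL5ΔDC livers had lower Nr1i3, Ahr, Ppara and Nr1h4 and higher Arnt than control livers. Treated control livers varied, with Nr1i3 at 141, 63.1 and 60.0 CPM and Ahr at 71.2, 21.2 and 23.5 CPM. Treated FBXL5ΔDC livers had 31.9, 44.5 and 31.4 CPM of Nr1i3 and 13.3, 10.9 and 11.7 CPM of Ahr. Fits without the third treated control library are not given for these factors. Of 14 genes used to read the activity of such factors, 4 were higher in control livers, all linked to the antioxidant factor NRF2: Srxn1 (4.47), Gclc (2.63), Txnrd1 (2.34) and Nqo1 (1.35). Cyp3a11 (-1.01) and Acot1 (-1.91) were lower. In FBXL5ΔDC livers 6 of the 14 were higher and 4 lower, against 15% and 15.1% of all tested genes. By group mean, Tiparp went there from 3.85 to 136 CPM and Pdk4 from 17.5 to 176 CPM. Cyp1a2 went from 414 to 58.6 CPM and Cyp3a11 from 6900 to 1790 CPM. Genes of this list thus moved both ways, and the activity of the factors was not tested.

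Several markers of liver zones and cell types also differed between 0 h and 6 h, some lower and some higher. Of 10 pericentral hepatocyte genes, 5 were lower in control and 10 in FBXL5ΔDC livers at 6 h. Their summed level was 8880 to 12000 CPM in untreated and 3320 to 5540 CPM in treated control livers, and 11300 to 12100 against 916 to 1480 CPM in FBXL5ΔDC livers. The 10 periportal genes summed to 13000 to 14900 CPM in untreated and 10300 to 14500 CPM in treated control livers. In FBXL5ΔDC livers the periportal sum was 14300 to 15900 CPM at 0 h and 14300 to 14700 CPM at 6 h. Of these 10 genes, 1 was called lower in control livers, and 2 higher and 1 lower in FBXL5ΔDC livers. The 8 general hepatocyte genes summed to 88900 to 97600 CPM at 0 h and 117000 to 152000 CPM at 6 h in FBXL5ΔDC livers. Only 2 of the 8 were called higher there and none lower. Alb made up most of the sum, with a mean of 60400 CPM at 0 h and 98100 CPM at 6 h, whereas Tat went from 2180 to 1110 CPM. Sinusoidal endothelium (5 of 6 higher, from 107 to 137 up to 211 to 259 CPM) and stellate cell genes (4 of 6 higher, from 59.8 to 104 up to 223 to 267 CPM) also rose in FBXL5ΔDC livers. Cholangiocyte markers had 4 of 6 and neutrophil markers 3 of 5 tested genes higher there. The part of these shifts in the UGT and SULT changes was not tested.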

How the data were processed

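The submitters' processing notes name Trim Galore 0.6.6, HISAT2 2.2.1 and mm10; the counting program and its strand setting are not given in the sources used here. The deposited values are estimated counts per gene, whole and not normalised, with low values piled up at multiples of 4. Raw counts had been planned for, and the test was kept. Members and lists were chosen with earlier results of these data known. All 12 libraries were fitted by group in edgeR 4.0.16 (R 4.3.3; TMM, filterByExpr, robust quasi-likelihood F-test; 17585 genes, Benjamini-Hochberg, threshold 0.05), checked on simulated data. Group means under 12 counts per library were taken as undetected, for counting error only. Every member was accounted for; those called, or among the 5 highest UGTs or SULTs per length, were given per library. In lists, up to 4 called genes by smallest p were named, plus some chosen after their values were seen. Annotation was GENCODE vM21 (GRCm38), where all 42 members matched. Alternatives were DESeq2 1.42.0, upper-quartile scaling, no filter, only the groups compared, a replicate block and leaving out each library. A listed factor is not reported here.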

Additional observations from a re-analysis of the deposited data

How the results depend on the processing

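Called members in control livers changed as follows. DESeq2 gave 1 higher member in place of 0, and a fit of the control libraries alone left 2 lower in place of 5. Leaving out 1 library at a time gave 0 to 1 higher and 2 to 5 lower. In FBXL5ΔDC livers a fit of those libraries alone gave 2 higher in place of 1 and 12 lower in place of 8, and leaving out 1 library gave 0 to 1 higher and 6 to 10 lower. Between genotypes at 6 h, DESeq2 called 2 lower in place of 0, and leaving out 1 library gave 0 to 2 higher and 0 to 2 lower. For the interaction the same gave 0 to 1 higher and 0 to 2 lower. The summed Ugt1a change in control livers passed the test with DESeq2 (-0.45) and upper-quartile scaling (-0.51), and ran from -0.57 to -0.37 with 1 library left out. The summed Ugt1a difference between genotypes at 0 h was 0.05 and turned to -0.01 without untreated control replicate 3 and to -0.021 without untreated FBXL5ΔDC replicate 3, with a range of -0.02 to 0.12. The cause of these shifts was not tested. Over all genes the control response had 1118 higher and 739 lower calls, against 1687 and 1196 with DESeq2, 236 and 166 from the control libraries alone, and 475 to 1396 and 329 to 860 with 1 library left out. Genotype calls at 0 h were 0, against 8 higher and 6 lower with DESeq2 and 4 higher from the untreated libraries alone. At 6 h they were 238 higher and 793 lower, against 741 and 1402 with DESeq2, 0 and 17 from the treated libraries alone, and 33 to 1897 and 213 to 2384 with 1 library left out. The interaction had 6 higher and 45 lower, against 213 and 473 with DESeq2, 2 and 18 with upper-quartile scaling, 4 and 24 with a replicate block, and 0 to 1118 and 1 to 1445 with 1 library left out; the upper ends at 6 h and for the interaction were without treated control replicate 3.

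Sult2a8 and Ugt1a6b in both genotypes, and Ugt3a2, Ugt2b1 and Sult1d1 in FBXL5ΔDC livers, passed the test in all 12 fits that left out 1 library. Pairing by replicate number was looked at in log2 CPM after each gene's group mean was subtracted. Same-numbered libraries of different groups then correlated by -0.06 to 0.04 in 18 pairs, none above 0.1. Differently numbered libraries correlated by -0.0455 to 0.0618. These values show no pairing over all genes, but cannot tell whether the numbers mark a litter, day or batch. With a replicate block, 5 members were lower in control livers and 8 lower and 1 higher in FBXL5ΔDC livers, as without it, and the summed Ugt1a change was -0.44 in control and -0.29 in FBXL5ΔDC livers. The biological coefficient of variation was 0.391, and 3 libraries per group limit what can be called.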
